A study of Mus musculus with 24 samples.

Results

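Arntl, Clock and Npas2 encode the activators of the circadian clock, and the measurements described here are those of every probe set that the array's annotation assigns to these 3 genes. Of 18193 genes that the annotation names, these are 3, and they have 8 of the 45101 probe sets on the array, 2 for Arntl, 4 for Clock and 2 for Npas2, and no probe set annotated to several genes named any of the 3. Whole adrenals of wild-type male C57B/6J mice, aged 3 months, had been profiled on Affymetrix mouse arrays. The mice were entrained for 2 weeks to 12 h of light and 12 h of darkness and then released into constant darkness, and glands were collected every 4 h between 38 and 82 h after lights off, at 12 time points with 2 arrays each. No genotype or treatment differed between the groups, so time is the variable compared. Projected circadian time (CT) is the hours after lights off minus 12, modulo 24, so that CT0 is projected lights-on, and the 24 arrays cover CT2, CT6, CT10, CT14, CT18 and CT22 in 2 consecutive cycles.

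BMAL1, the product of Arntl, pairs with CLOCK or with its paralogue NPAS2 through basic helix-loop-helix and PAS domains. The pair binds E-box elements and switches on the Per and Cry genes, whose products return to block it, and also Nr1d1 and Nr1d2, which encode the repressors REV-ERB alpha and beta. REV-ERB proteins and the activating ROR proteins compete at RORE elements in the Arntl promoter, and this second loop is known to give Arntl its rhythm in antiphase to the Per genes. In the adrenal gland the local clock is known to gate the response of the cortex to ACTH and so to shape the daily rhythm of glucocorticoids.

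Whether separate animals stand behind the arrays of a time point is not stated in the labels, and the p-values below cover the spread between arrays, which may be technical. In 6 pairs of arrays, 5 of them 24 h apart and 1 at the same time point, all signals of 50 or more agreed within 5%, closer than the noise between other arrays. Such a pair entered as its mean and counted once, giving 18 profiles, 3 for each CT. All profiles of CT10 and CT18 (6, from 8 arrays, here the second array set) stood apart from the other 12 profiles (16 arrays, the first array set) in a bacterial control probe set, ThrX-3, which read 513 to 1858 in the second set and 56.3 to 101 in the first. The summed signal of 5 skeletal muscle markers ranged from 265 to 27111 in the second set and from 257 to 342 in the first, and Acta1, the muscle actin, was over 1000 in 4 profiles of the second set, while the muscle genes Mylpf and Tnnt3 were listed at 0 in every profile of the first. The summed signal of 4 liver markers ranged from 1230 to 15170 against 538 to 1941, and that of 3 kidney markers from 913 to 1439 against 1767 to 2090. For 2 blood markers the sum was 593 to 1468 against 400 to 625, and for 3 fat markers the ranges overlapped (17777 to 22056 against 16616 to 22370). Markers of the gland itself were high in every profile, with sums of 55338 to 64137 against 61857 to 66784 for 7 genes of the cortex and of 32057 to 39565 against 32799 to 41578 for 5 genes of the medulla. The ratio of the 5' to the 3' probe set of Gapdh, a sign of RNA quality, was 0.0386 to 0.978 in the second set and 1.03 to 1.15 in the first. The part of these differences in the results was not tested, and each rhythm is therefore also given with the array set as a block and within the first array set alone. The number of arrays limits the precision.

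The promoter of each gene is shown because the RORE is the element through which Arntl is known to be driven. Sequences are RefSeq's (mouse build GRCm38.p6), from 250 bases before to 50 after an annotated start, and all 3 genes were matched. Arntl (chr7:113178471-113314126, 2 windows) is shown by the later of its windows (plus strand, chr7:113207261-113207560), Clock (chr5:76209868-76305603, 3 windows) by chr5:76304743-76305042 (minus strand), and Npas2 (chr1:39193702-39363240, 1 window) by chr1:39194022-39194321 (plus strand). Capitals mark a RORE and the CCAAT box, which reads ATTGG where it lies on the other strand.
Arntl: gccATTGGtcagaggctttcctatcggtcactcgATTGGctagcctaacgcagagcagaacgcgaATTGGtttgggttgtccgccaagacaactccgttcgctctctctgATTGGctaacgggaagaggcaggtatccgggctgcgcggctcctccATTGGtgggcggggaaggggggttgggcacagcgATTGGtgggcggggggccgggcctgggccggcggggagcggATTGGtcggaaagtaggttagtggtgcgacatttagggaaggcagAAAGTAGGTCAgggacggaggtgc
Clock: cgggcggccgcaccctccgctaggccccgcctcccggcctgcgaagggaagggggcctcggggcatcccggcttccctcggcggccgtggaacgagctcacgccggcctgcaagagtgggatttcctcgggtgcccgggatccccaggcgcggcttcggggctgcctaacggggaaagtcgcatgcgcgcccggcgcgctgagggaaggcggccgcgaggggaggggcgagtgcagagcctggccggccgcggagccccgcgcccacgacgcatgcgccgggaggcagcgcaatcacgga
Npas2: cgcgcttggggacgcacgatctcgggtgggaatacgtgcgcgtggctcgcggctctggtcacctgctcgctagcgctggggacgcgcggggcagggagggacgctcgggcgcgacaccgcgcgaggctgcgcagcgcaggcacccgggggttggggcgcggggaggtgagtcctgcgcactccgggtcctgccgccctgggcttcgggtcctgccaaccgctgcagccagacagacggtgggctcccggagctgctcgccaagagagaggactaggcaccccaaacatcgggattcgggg
The Arntl window shown held 1 match to the RORE, AAAGTAGGTCA, on the plus strand, from base 27 to base 37 counted from 1 at the start site. Of 32851 windows of this length in the RefSeq table, 0.384% held a RORE on either strand. The other window of Arntl held no match to the RORE, and neither did the windows of Clock or that of Npas2. The shorter core AGGTCA, present in 16.3% of all windows, lay inside the RORE of Arntl and once in another window of Clock. No window of the 3 genes held the E-box CACGTG (7.15% of all windows), the D-box TTANGTAA (2.32%) or the cyclic AMP element TGACGTCA (1.79%). The Arntl window also held 7 CCAAT boxes, and its other window, which overlaps it, held 8. The CCAAT box was singled out after the sequence was seen. At least 1 occurred in 37.4% of all windows, but 7 or more in only 4 windows (0.0122%), of which 2 are those of Arntl. These matches describe the letters in the windows and do not show binding.

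Arntl had a deep trough at CT10 and its crest at CT22. Probe set 1425099_a_at (signals are linear and in the deposited unit) read 1565, 1684 and 1805 at CT2 and 342, 369 and 480 at CT6. It was listed at 0 in 2 profiles of CT10 and at 47.2 in the other, then read 274, 355 and 640 at CT14. At CT18 it read 583, 876 and 1115, and at CT22 1920, 1954 and 2173. The profiles of CT22 thus lay above all others, those of CT2 came next and did not overlap with those of CT18, and those of CT10 lay below all others. The ranges of CT18, CT14 and CT6 overlapped from each to the next. On the log2(signal + 51) scale used for tests, the level was 11.01 ± 0.09 at CT22 and 5.99 ± 0.55 at CT10 (SD, n = 3 each), and no fold is given against CT10 because most of its profiles are listed at 0. As glands were taken whole, fewer cells of a type and less RNA per cell cannot be told apart.

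**Figure D1:**
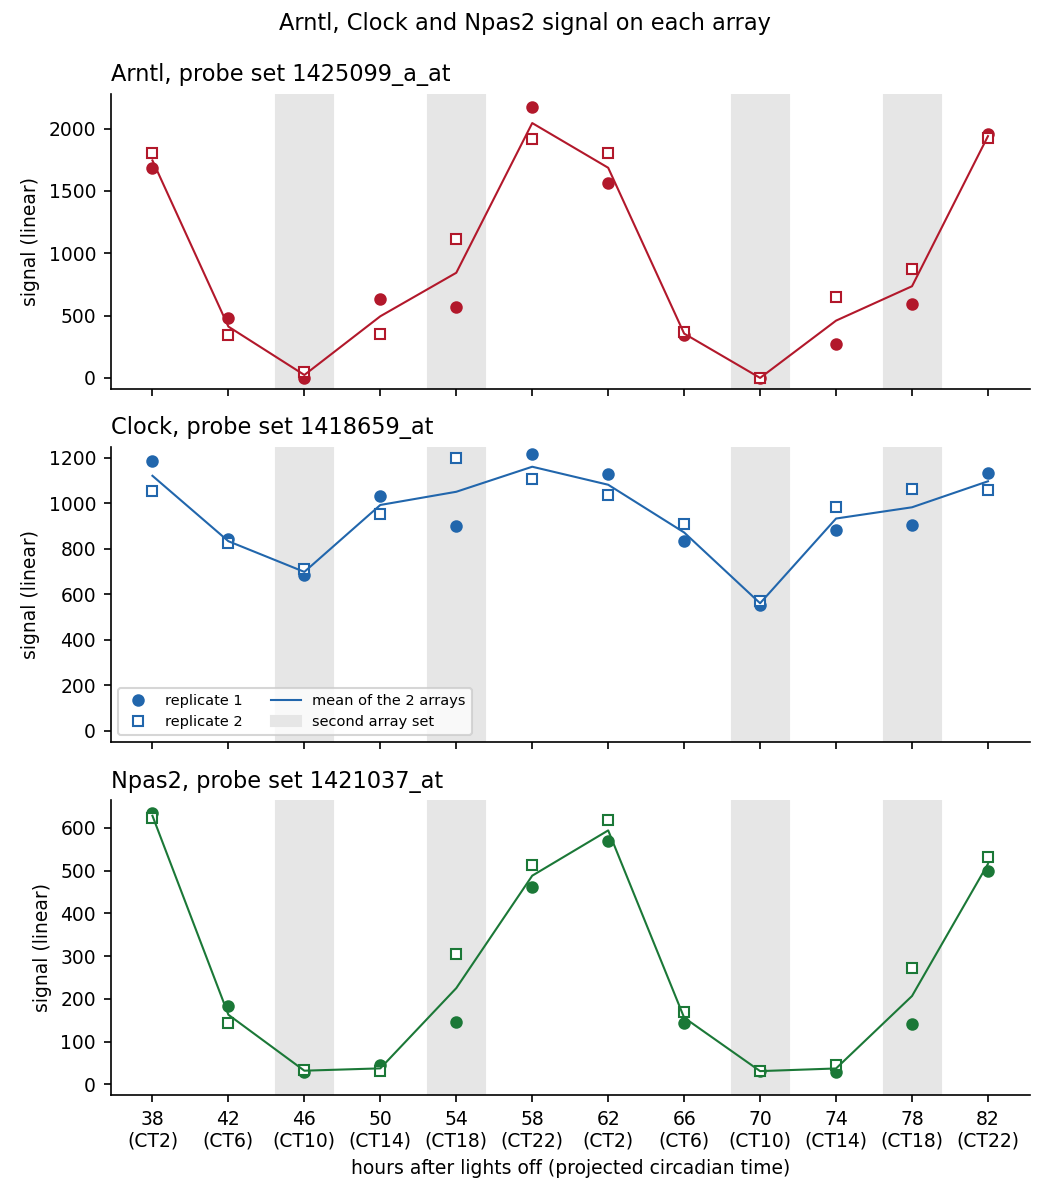
Linear signal (vertical axis) of 1 probe set each of Arntl, Clock and Npas2 on all 24 arrays, by hours after lights off with the projected circadian time in brackets (horizontal axis). Filled circles are replicate 1, open squares replicate 2, lines join the means of the 2 arrays, and grey bands mark the second array set. Arntl and Npas2 were high around CT22 and CT2 in both cycles and low around CT10, and Clock dipped at CT10 without nearing 0.

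Npas2 had a deep trough as well, with its crest at CT2. Probe set 1421037_at read 570, 620 and 635 at CT2, 144, 168 and 183 at CT6, and 29.8, 31.2 and 34.7 at CT10. It read 28.2, 30.5 and 45.7 at CT14, 144, 273 and 304 at CT18, and 462, 499 and 523 at CT22. The profiles of CT2 thus lay above and apart from those of CT22, whereas in Arntl those of CT22 lay above those of CT2. The trough of Npas2 spanned CT10 and CT14, whose ranges overlapped, while Arntl at CT14 was already at 274 or more. This probe set had a mean log2 signal of 7.86, at the 39.6th percentile of all probe sets and just under the 40th percentile (7.87, a signal of 183) below which probe sets were left out of the tests. Its results are therefore given from the fit without that filter, over 45037 probe sets in place of 27022.

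The other probe set of Npas2, 1421036_at, passed the filter and hardly moved. Its mean log2 levels lay between 7.96 ± 0.17 at CT10 and 8.27 ± 0.06 at CT2 (SD, n = 3 each), and its signal on single arrays between 164 and 269. Both probe sets were designed to the same sequence record, and which transcripts each of them detects was not tested.

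Clock varied far less and never approached 0. Probe set 1418659_at read 1047, 1128 and 1187 at CT2, 831, 843 and 910 at CT6, and 561, 685 and 713 at CT10. It read 885, 955 and 1007 at CT14, 903, 1063 and 1200 at CT18, and 1083, 1135 and 1216 at CT22. The profiles of CT10 lay below all others, and from CT22 through CT2, CT18 and CT14 to CT6, in falling order of the mean, each range overlapped with the next. Of the other probe sets of Clock, 1418660_at had its highest mean at CT2 (9.52 ± 0.11 log2) and its lowest at CT10 (8.42 ± 0.13), and 1435775_at likewise (9.29 ± 0.08 at CT2 and 8.27 ± 0.08 at CT10; SD, n = 3 each). In both, unlike in 1418659_at, CT18 overlapped with CT10. Probe set 1439314_at, at the 31.0th percentile of mean signal and under the filter, read between 89.1 and 172 on every array with ranges that overlapped from each CT to the next in order. The second probe set of Arntl, 1457740_at, read between 178 and 333 on every array and was also lowest at CT10 (7.98 ± 0.13 log2, SD, n = 3).

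**Figure D2:**
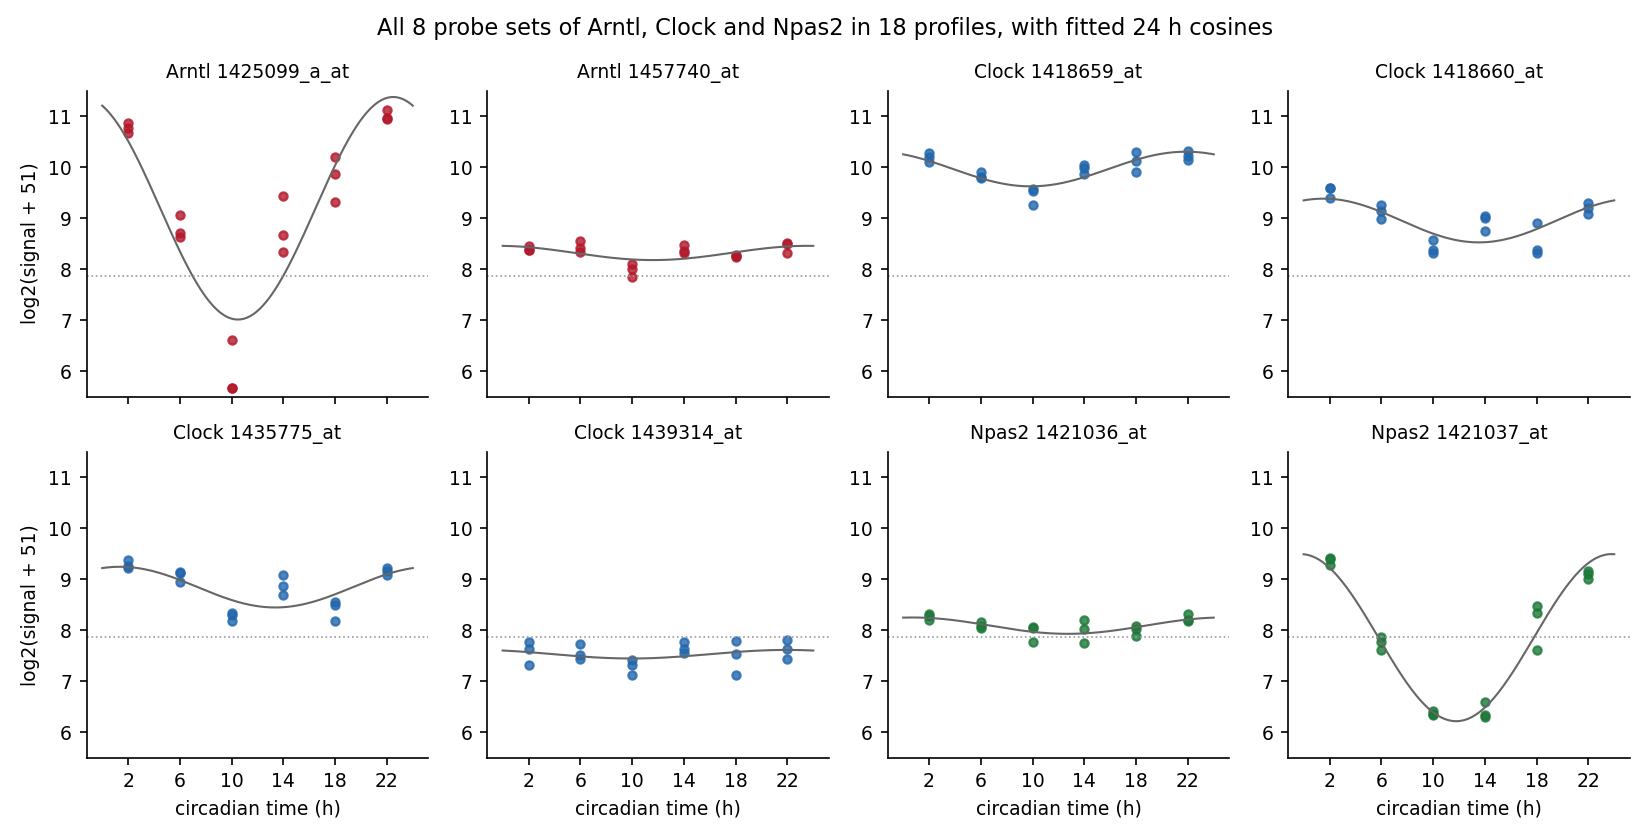
Level on the log2(signal + 51) scale (vertical axis) of all 8 probe sets against projected circadian time in hours (horizontal axis). Points are the 18 profiles, curves the fitted 24 h cosine, and dotted lines the level filter. Arntl 1425099_a_at and Npas2 1421037_at have deep troughs, 3 probe sets of Clock shallow ones, and Arntl 1457740_at, Clock 1439314_at and Npas2 1421036_at stay within a narrow band.

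The main question of a time series in constant darkness is which transcripts keep a 24 h rhythm without light. Of the 6 probe sets of the 3 genes that passed the filter, 4 had a 24 h rhythm past the threshold (limma, moderated F test, adjusted p under 0.05 over all tested probe sets), against a background of 10.2% of the 27022 probe sets tested. Arntl 1425099_a_at had an amplitude, the distance from mean to crest, of 2.18 ± 0.24 log2 units (SE over 18 profiles) and peaked at CT 22.5 ± 0.41 h (limma, adjusted p = 8.61e-05). Clock 1418659_at had an amplitude of 0.34 ± 0.05 and peaked at 21.9 ± 0.61 h (limma, adjusted p = 0.00234), a peak-to-trough ratio of 1.60 on the offset scale. Clock 1418660_at and 1435775_at had amplitudes of 0.43 ± 0.09 and 0.40 ± 0.10 and peaked at 1.54 and 1.37 h (limma, adjusted p = 0.0207 and 0.0304). Arntl 1457740_at (0.14 ± 0.05, adjusted p = 0.191) and Npas2 1421036_at (0.16 ± 0.04, adjusted p = 0.0609) did not pass. The amplitude of Arntl depends on how the values near 0 are treated: it was 3.58 with an offset of 1 and 1.54 with an offset of 204.

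Without the filter, 5 of the 8 probe sets passed, against 5.28% of 45037. Npas2 1421037_at then had an amplitude of 1.64 ± 0.08 log2 units and a peak at 23.8 ± 0.18 h (limma, adjusted p = 6.13e-09). None of the other probe sets in this fit had a lower p, and the cosine accounted for 96.5% of its variance over the 18 profiles, against 82.6% for Arntl 1425099_a_at. Its trough signals lie below the offset of 51, and its amplitude was 2.32 with an offset of 1 and 0.96 with one of 204. Clock 1439314_at did not pass (0.08 ± 0.07, adjusted p = 0.678).

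The rhythms of all 3 genes were also present inside the first array set, which holds CT2, CT6, CT14 and CT22 and therefore not the trough of Arntl. There Arntl 1425099_a_at had an amplitude of 1.56 ± 0.13 and a peak at 22.3 h (limma, adjusted p = 1.04e-04, n = 12 profiles). The peak-to-trough ratio of 8.68 is that of the fitted cosine on the offset scale, whose trough falls at a time not sampled in this set. Mean log2 levels in the set ran from 8.80 at CT6 to 11.01 at CT22. Npas2 1421037_at had an amplitude of 1.62 ± 0.06 and a peak at 0.10 h (limma, adjusted p = 1.57e-07, no filter). Clock 1418659_at had an amplitude of 0.24 ± 0.05 and a peak at 21.5 h (limma, adjusted p = 0.0119). The share of all tested probe sets past the threshold in the first set was 10.1%, and 5.16% without the filter. With the array set as a block (16% of all tested probe sets called, 8.97% without the filter), the amplitudes were 1.95 for Arntl 1425099_a_at, 1.69 for Npas2 1421037_at and 0.31 for Clock 1418659_at, and all passed (adjusted p = 3.65e-06, 7.04e-09 and 7.51e-04). In that fit the second array set minus the first was -1.29 log2 units for Arntl 1425099_a_at (means 7.89 and 9.84, limma, adjusted p = 0.00101) and 0.17 for Npas2 1421037_at (means 7.26 and 8.16, adjusted p = 0.303). This difference was -0.62 and -0.53 for Clock 1435775_at and 1418660_at (limma, adjusted p = 5.45e-06 and 6.03e-04), larger in size than their amplitudes given next. It was -0.28 for Arntl 1457740_at and -0.21 for Clock 1418659_at (limma, adjusted p = 0.00327 and 0.0446). Npas2 1421036_at and Clock 1439314_at had -0.07 and -0.24 (limma, adjusted p = 0.486 and 0.0768). Clock 1418660_at and 1435775_at kept their calls with smaller amplitudes, of 0.25 and 0.20 with the block (adjusted p = 0.0449 and 0.0279) and of 0.25 and 0.19 in the first set (0.0422 and 0.0414). Adjusted over the probe sets without the level filter, 1418660_at did not pass with the block (0.0636), and neither passed in the first set (0.0637 for each). The array set and CT10 with CT18 cannot be told apart in the set differences. Clock 1418659_at lost its call without CT10 (5.13% of all tested probe sets called; amplitude 0.23, adjusted p = 0.0518), while Arntl 1425099_a_at (1.495, adjusted p = 3.28e-04) and Npas2 1421037_at (1.62, adjusted p = 7.21e-06) kept theirs.

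**Figure D3:**
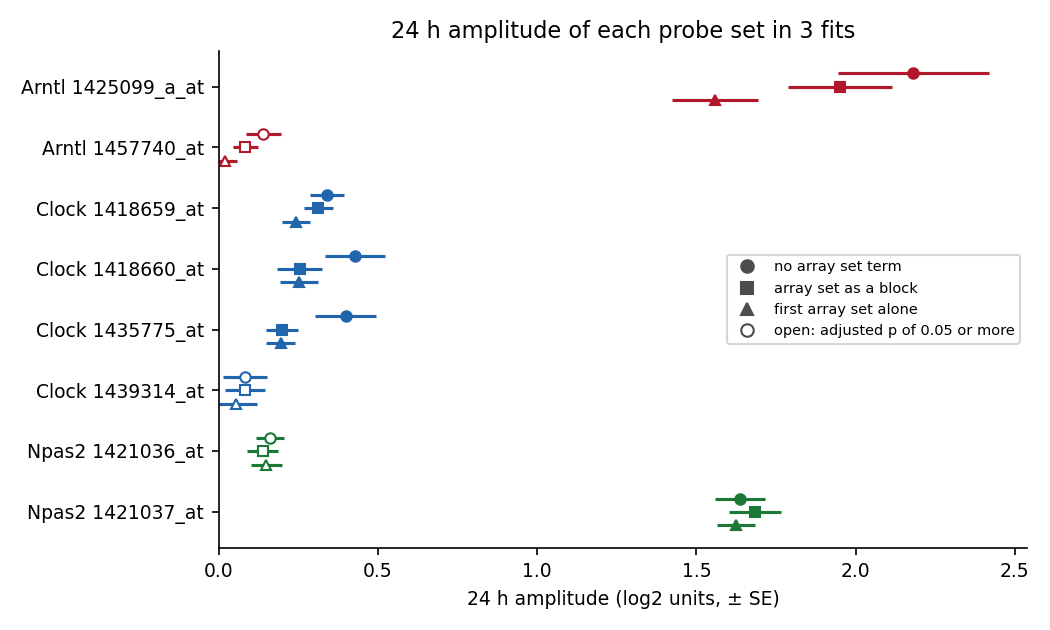
Fitted 24 h amplitude in log2 units (horizontal axis, ± SE) of each of the 8 probe sets (rows) in 3 fits. Circles are the fit to 18 profiles with no array set term, squares that with the array set as a block, and triangles the 12 profiles of the first array set, with open symbols where the adjusted p was 0.05 or more and the 2 probe sets under the level filter shown from fits without it. The amplitude of Npas2 1421037_at lies between 1.62 and 1.69 in all 3 fits, and that of Arntl 1425099_a_at between 1.56 and 2.18.

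Pairs of probe sets were then compared directly. A 24 h cosine was tested in the within-profile difference of log2 signal between pairs of probe sets (permutation test with 100000 permutations of the profiles, one-sided, adjusted over 3 pairs). Such a cosine can come from unequal amplitudes as well as from unequal times, and it compares probe sets, since those of 1 gene differed too. For Arntl 1425099_a_at minus Clock 1418659_at it accounted for 83.2% of the variance with an amplitude of 1.85 log2 units (adjusted p = 1.5e-05, which rests on 1e-05, the smallest p the permutations can give). For Arntl minus Npas2 1421036_at it accounted for 81.2% (adjusted p = 1.5e-05), and for Clock 1418659_at minus Npas2 1421036_at for 52.5% (permutation test, adjusted p = 0.00132), though not within the first array set (44.7%, adjusted p = 0.0770).

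The pairs with Npas2 1421037_at and a pair within Clock were added after the data were seen, as a family of 4. Arntl 1425099_a_at minus Npas2 1421037_at followed a cosine of amplitude 0.84 log2 units that was highest at 19.8 h and accounted for 42.9% of the variance (permutation test, adjusted p = 0.0106). With the array set as a block the share was 80.2% (adjusted p = 1.2e-04), and it fell short of the threshold with an offset of 1 (26.2%, adjusted p = 0.0833). Npas2 1421037_at minus Clock 1418659_at followed an amplitude of 1.35 (95.3% of the variance, adjusted p = 2e-05), and the difference between the 2 probe sets of Npas2 one of 1.48 (95.3%, adjusted p = 2e-05). Within Clock, 1418659_at minus 1418660_at had an amplitude of 0.36 with its highest value at 16.9 h (64.3%, adjusted p = 2.53e-04). These probe sets of one gene therefore disagreed on the time course by more than the spread between profiles.

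Between CT22 and CT14, late and early projected night, which lie in the same array set, Arntl 1425099_a_at was higher at CT22 by 2.20 ± 0.28 log2 units (SE, n = 3 each; limma, adjusted p = 0.00106). It was the only one of the 6 tested probe sets of these genes that differed, where 1.47% of all tested probe sets did (0.481% higher and 0.988% lower at CT22). With an offset of 1 the difference was 2.34 and no longer passed (limma, adjusted p = 0.331). The SE and test of this and the following contrasts pool the spread over all 6 circadian times, with the signals of 0 at CT10. What these signals contributed to the lost call was not tested. Without the filter (0.786% called, 0.271% higher) Npas2 1421037_at was higher at CT22 by 2.67 ± 0.16 (limma, adjusted p = 5.55e-07), and by 3.82 with an offset of 1 and 1.55 with one of 204. Clock 1418659_at was at 10.22 ± 0.08 at CT22 and 9.96 ± 0.09 at CT14 (log2, SD, n = 3 each), and the difference of 0.26 ± 0.10 (SE) did not pass (limma, adjusted p = 0.293).

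Across projected dawn, CT22 against CT2, no probe set of the 3 genes passed in limma (0.13% of all tested did), and at an unadjusted p under 0.05 there was 1 of 6, Clock 1418660_at, where 2444 of 27022 tested probe sets had one. It was lower at CT22 by 0.34 ± 0.14 log2 units (difference -0.34, adjusted p = 0.469). The difference was 0.25 ± 0.28 for Arntl 1425099_a_at and -0.27 ± 0.16 for Npas2 1421037_at (SE, n = 3 each, limma, adjusted p = 0.848 and 0.813). The opposite order of these times in Arntl and Npas2, described above, was thus not past this test in either gene alone. The SE pools the spread over all 6 circadian times. For Arntl the SD was 0.09 at CT22 and 0.10 at CT2, but 0.55 at CT10 and 0.56 at CT14. For Npas2 1421037_at it was 0.08 at CT22 and at CT2, 0.04 at CT10 and 0.47 at CT18.

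Within the second array set, CT18 against CT10, Arntl 1425099_a_at was higher at CT18 by 3.80 ± 0.28 on the log2(signal + 51) scale (limma, adjusted p = 2.41e-07), a value that depends on the offset because of the signals of 0 at CT10. Clock 1418659_at was higher by 0.65 ± 0.10 (adjusted p = 2.92e-04), Arntl 1457740_at by 0.28 ± 0.09 (adjusted p = 0.0302) and, without the filter, Npas2 1421037_at by 1.77 ± 0.16 (adjusted p = 2.63e-06), or 2.81 with an offset of 1 and 0.89 with one of 204. This made 3 of 6 tested probe sets, all higher, where 10.8% of all tested probe sets were higher and 10.9% lower (6.43% higher without the filter). Clock 1418660_at and 1435775_at differed by 0.11 ± 0.14 and 0.13 ± 0.11 and did not pass (adjusted p = 0.611 and 0.429). The call of Arntl 1457740_at was lost without replicate 1 or replicate 2 of 46 h or replicate 2 of 78 h (adjusted p = 0.0646, 0.136 and 0.0669). The summed muscle signal was 573 to 27111 at CT18 and 265 to 9171 at CT10, and the liver sum 1428 to 15170 against 1230 to 1476. Replicate 2 of 78 h, a profile of CT18, stood apart with a Gapdh 5' to 3' signal ratio of 0.0386 and the lowest median log2 level of all arrays (8.14). Without it 2 of the 6 passed, and the differences were 3.76 for Arntl 1425099_a_at, 0.64 for Clock 1418659_at and 1.67 for Npas2 1421037_at (limma, adjusted p = 1.29e-06, 0.00107 and 1.43e-05). The part of the marker signals in this contrast was not tested.

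The second cycle in darkness was compared with the first over the 13 profiles that belong to 1 cycle, 6 in the second and 7 in the first. Neither the level nor the rhythm of any probe set of the 3 genes differed past the threshold in limma (0 of 6 in each, where 0% of all tested probe sets were called, and 2178 and 537 of 27022 had an unadjusted p under 0.05, none of them a probe set of these genes). At CT2 Arntl 1425099_a_at read 1565 in the compared profile of the second cycle and 1684 in that of the first. At CT22 it read 1954 in the second and 2173 in the first. The other arrays of CT2 and CT22 form near-copy pairs that span both cycles, so they were not part of this comparison. The level of Arntl 1425099_a_at was -0.30 ± 0.14 log2 units in the second cycle minus the first (SE; unadjusted p = 0.0542 and adjusted p = 0.622 in limma), and that of Npas2 1421037_at -0.05 ± 0.06 (adjusted p = 0.893). These comparisons do not show that the cycles were alike, only that no difference was past the test.

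A 12 h component beside the 24 h rhythm was past the threshold in limma for 0 of the 6 probe sets (0.263% of all tested). Such a component can come from a course sharper than a cosine. A difference between the array sets, which split CT10 and CT18 from the rest, also enters it, and the sources cannot be told apart in this fit. At an unadjusted p under 0.05 there were 4 of 6, where 5676 of 27022 tested probe sets had one. The largest, of 0.75 log2 units, was that of Arntl 1425099_a_at (unadjusted p = 0.00139, adjusted p = 0.0937).

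Among the other 13879 genes, each by its brightest tested probe set, the genes most like each activator were ranked by Pearson correlations over the 18 profiles, all together and centred within array sets, as descriptions without a test. Their order goes by the lower of the 2 correlations, and for opposite genes by the one nearer 0, and not by the value over all profiles alone. The 18 profiles share the 6 circadian times and the 2 array sets, so genes with a like peak time correlate. Arntl 1425099_a_at was most like Clock 1418659_at (r = 0.95 over all profiles and 0.94 within array sets), followed by Tor4a, Cryba4, D630024D03Rik and Cavin3 (0.93 to 0.95 over all profiles). It was most opposite to Slc5a6, which encodes a vitamin transporter (-0.90), to Lefty1 (-0.89) and to Dbp, a D-box activator driven by the clock (-0.89, and -0.94 within array sets). Clock 1418659_at was in turn most like Arntl, then C1galt1c1, Nr0b2, Chka and Cyb5r4 (0.90 to 0.94), and most opposite to Dbp (-0.88), Mgrn1 (-0.89) and Slc5a6 (-0.87).

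Npas2 1421037_at was compared in the same way after the data were seen. It was most like Slc30a2, a zinc transporter gene (r = 0.96), H2bc21, Anp32a, Ier5 and Nqo2 (0.92 to 0.95), and most opposite to Tef, another D-box activator (-0.96, and -0.97 within array sets), Slc5a6 (-0.93) and Herpud1 (-0.91). Over the same 18 profiles its r was 0.86 with Arntl 1425099_a_at and 0.77 with Clock 1418659_at. Npas2 1421036_at was less closely matched by any gene, with Pcdh12 first (0.81), then Carmil3, Get4, Gm4665 and Prss50 (0.76 to 0.81), and Pcdhb10 (-0.84), Tmed5 (-0.76) and Gm6277 (-0.72) as its opposites.

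The peak times of other loop genes were set beside those of the activators. Each listed gene is given by its brightest tested probe set, and the lists, which overlap, hold textbook members. Taken in the same way, 1575 of 13880 genes were past the threshold, and 1555 of 13880 in the first array set. Of 5 genes known to act on Arntl through ROREs, 4 had a tested probe set and 2 were rhythmic. Nr1d1 had an amplitude of 1.77 ± 0.14 log2 units and a peak at 7.28 h, and Nr1d2 1.33 ± 0.10 and 10.3 h (limma, adjusted p = 4.80e-06 and 2.25e-06), both repressors and 8.80 h or more from the peak of Arntl. The activator genes Rora (0.09 ± 0.06, adjusted p = 0.469) and Rorb (0.05 ± 0.05, adjusted p = 0.647) did not pass.

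Of 15 genes known as E-box targets of the activators, 13 were rhythmic, with peaks from 7.28 h (Nr1d1) to 18.1 h (Cry1). The largest amplitudes were those of Dbp (2.18 ± 0.16, peak 9.57 h), Nr1d1, Nr1d2, Cry1, a repressor (1.28 ± 0.09, peak 18.1 h), and Per2, also a repressor (1.15 ± 0.10, peak 13.7 h; limma, adjusted p between 1.50e-06 and 7.08e-06 for Dbp, Cry1 and Per2). The others past the threshold were Tef, Usp2, Per1, Wee1, Ciart, Bhlhe40, Cry2 and Hlf, with amplitudes from 0.36 to 0.93, and Per3 and Bhlhe41 did not pass. Without the level filter 1 of the 6 probe sets of Per3 did, and 14 of the 15 genes had at least 1 probe set that passed. That count takes any probe set of a gene, so the share of genes by their brightest probe set is no background for it. Of the 13, 12 peaked more than 6 h from the fitted peak of Arntl, and Cry1 peaked 4.38 h from it. The share of all rhythmic genes that peaked this far from Arntl was not counted, so the count has no background. In the whole core loop of 22 listed genes, apart from the activators, 13 of 18 with a tested probe set were rhythmic, with a median amplitude over the 18 of 0.45 log2 units beside 0.12 over all tested probe sets. Those not yet named are Nfil3, a D-box repressor (0.96 ± 0.13, peak 18.9 h, limma, adjusted p = 7.51e-04), and Csnk1e, a clock kinase (0.29 ± 0.07, peak 6.52 h, adjusted p = 0.0296). Within the first array set 10 of the 15 targets and 9 of the 18 loop genes passed.

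**Figure D4:**
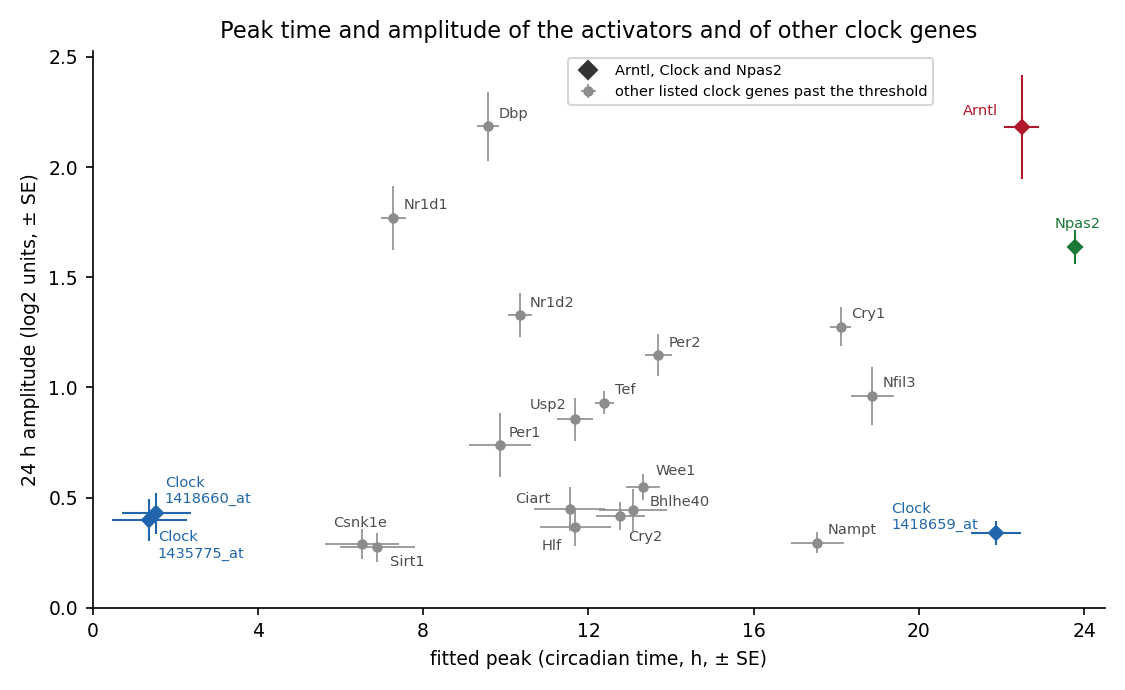
Fitted 24 h amplitude in log2 units (vertical axis) against fitted peak in hours of projected circadian time (horizontal axis), both ± SE, for the activators (coloured diamonds) and other listed clock genes past the threshold (grey circles). Arntl, Npas2 (probe set 1421037_at, fitted without the level filter) and the 3 rhythmic probe sets of Clock lie between 21.9 and 1.54 h, while the other genes lie between 6.52 and 18.9 h.

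Structural relatives of the activators were measured as well. Of 12 other genes of the basic helix-loop-helix PAS family, 9 had a tested probe set and 0 of the 9 passed in limma, beside 1575 of 13880 genes. The 9 include 4 factors of the hypoxia or dioxin response (Hif1a, Epas1, Ahr and Ahrr) with amplitudes of 0.12 ± 0.03, 0.06 ± 0.02, 0.03 ± 0.05 and 0.04 ± 0.04. At an unadjusted p under 0.05 there were 2 of the 9, beside 7840 of 27022 probe sets. In the fit with 1 probe set per gene, 4294 of 13880 genes had such a p. The 2 were Arnt2 (0.28 ± 0.07, limma, adjusted p = 0.0529) and Hif1a (adjusted p = 0.0638). Both passed with the array set as a block (adjusted p = 0.0121 and 0.0388, beside 2321 of 13880 genes). With 1 probe set per gene Arnt2 passed (adjusted p = 0.0443, beside 1777 of 13880 genes) and Hif1a did not (0.0543). Arntl2, the paralogue of Arntl, had no probe set past the level filter.

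Of 13 genes known as partners or modifiers of the activators, 12 had a tested probe set and 2 were rhythmic, beside 1575 of 13880 genes. They were Nampt, the rate-limiting enzyme of NAD salvage (0.30 ± 0.05, peak 17.5 h, limma, adjusted p = 0.00316), and Sirt1, an NAD-dependent deacetylase that binds CLOCK (0.27 ± 0.07, peak 6.89 h, adjusted p = 0.02996). With the array set as a block 5 passed, beside 2321 of 13880 genes. In the fit with 1 probe set per gene Ube2o and Fbxw7 passed too (limma, adjusted p = 0.0451 and 0.0450), beside 1777 of 13880 genes. Within the first array set 1 passed, Nampt (limma, adjusted p = 0.0170), beside 1555 of 13880 genes, and Sirt1 did not (adjusted p = 0.192). The acetyltransferase genes Crebbp and Ep300, whose products are coactivators of the pair, had amplitudes of 0.06 ± 0.04 and 0.10 ± 0.05 and did not pass (adjusted p = 0.587 and 0.262).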

How the data were processed

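The authors deposited 1 intensity value per probe set and array, on a linear scale, and no source used here says how they summarised or scaled it. Tests used log2(intensity + 51), the offset being the 10th percentile of the deposited table, which understates changes of dim genes, and array medians lay between 8.14 and 8.32. Groups follow the hours after lights off in the labels. The 6 pairs of near-copies were averaged on the log2 scale, and array sets were split at a ThrX-3 signal of 300, both after the data were seen. Probe sets with a mean log2 under the 40th percentile were left out, as were 64 controls. A cosine and sine of 24 h were fitted with limma 3.58.1 (trend) in R 4.3.3 with data.table, version 1.17.8, and p-values were adjusted by Benjamini-Hochberg over all 27022 tested probe sets, threshold 0.05. Contrasts came from free levels of the 6 circadian times. Permutations used numpy 2.4.6 and pandas 2.3.3 in Python 3.11.15, and figures matplotlib 3.10.9. In simulated data limma recovered 30, 90, 94 and 100% of probe sets with 24 h amplitudes of 0.25, 0.5, 1 and 2 log2 units, with 11 false calls in 27022. These rates hold for the simulated data and are not error rates of the calls reported here. The genes named are all probe sets of Arntl, Clock and Npas2, the listed clock genes past the threshold, and the 5 most like and 3 most opposite genes of each activator, with further members of the lists given as examples that did not pass. The members and lists were chosen with earlier results of these data known. The alternatives were the offset, the level filter, 1 probe set per gene, quantile normalization, robust limma, all 24 arrays, left-out profiles or replicates, and the array set as a block or alone.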

Additional observations from a re-analysis of the deposited data

How the results depend on the processing

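The rhythm was past the threshold in 4 of the 6 tested probe sets of the 3 genes. This count was 2 of 3 with 1 probe set per gene, 0 without replicate 1, 1 without replicate 2, 1 without CT10 (added after seeing the data) and 2 to 5 when each profile was left out in turn. Over all tested probe sets the 2749 calls became 4319 with the array set as a block, 1777 of 13880 with 1 probe set per gene, 1486 without the profiles of high Acta1, 1387 without CT10, 31 without replicate 1, 175 without replicate 2, and 1726 to 3358 when each profile was left out. All 24 arrays gave 7411 calls, and 7209 with a replicate block, which changed no call of these genes. The replicate numbers do not pair the samples: over 66 pairs of time points the correlation of replicate differences ranged from -0.534 to 0.522, with a median of 0.0116. For CT22 minus CT14 the count of 1 was 0 with an offset of 1 and 2 without the filter, and the pair of Clock 1418659_at and Npas2 1421036_at gave 44.7% in the first array set (adjusted p = 0.0770). The smaller numbers of profiles or probe sets are part of these settings, and other causes were not tested.

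Leaving out any 1 profile kept the calls of Arntl 1425099_a_at, Clock 1418659_at and Npas2 1421037_at (adjusted p up to 4.45e-04, 0.00818 and 7.39e-08). Without replicate 1 Arntl 1425099_a_at did not pass (amplitude 2.18, adjusted p = 0.112), nor did Clock 1418659_at (0.274, and 0.104 without replicate 2). Npas2 1421037_at, under the level filter, was not fitted without a replicate. Clock 1418660_at lost its call without 62 h replicate 1 or without the pair of 38 and 62 h replicate 2 (adjusted p = 0.0537 and 0.0515). Clock 1435775_at lost it in 7 of 18 such fits (adjusted p up to 0.0713): without 38 h replicate 1, 62 h replicate 1, 46 h replicate 1 or 2, or the pairs of 38 and 62 h replicate 2, of 70 h, and of 58 and 82 h replicate 2. It also lost it without the profiles of high Acta1 (0.0890), and both lost it without CT10 (0.0545 and 0.0658). Npas2 1421036_at passed with quantile normalization (0.0420), without 50 h replicate 2 (0.0190) and over all 24 arrays (0.00988). The called differences between circadian times kept their sign in every setting run. Signals listed at 0 limit how deep the trough of Arntl can be measured.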

Other observations

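In each of the 6 pairs of near-copies, the largest difference between the 2 arrays among signals of 50 or more was 5.0% of the larger value. The SD of the log2 ratio was between 0.0415 and 0.0418 in all 6 pairs, and between 0.217 and 0.516 in 30 other pairs of arrays of the same circadian time.

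The brighter of the probe sets of Npas2 depends on the scale. By mean log2 signal it was 1421036_at (8.09, against 7.86 for 1421037_at), and by mean linear signal 1421037_at (262, against 223 for 1421036_at). A rule that keeps the probe set with the higher mean log2 therefore keeps the probe set of Npas2 that did not pass the 24 h test.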
